A study of Homo sapiens with 42 samples.

Results

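The alcohol dehydrogenase 1 genes ADH1A, ADH1B and ADH1C, the flavin-containing monooxygenase genes FMO1, FMO2, FMO4 and FMO5, and the retinal dehydrogenase genes ALDH1A1 and ALDH1A3 were followed across 12 groups of human lung fibroblast libraries. These are 9 genes of the 28266 symbols in the count table. They were chosen by measured values in part, as relatives of ADH1B and FMO2, which were selected on read counts that were among the most lowered in senescent cells with a control shRNA. That contrast is therefore given as a description without a test, and the senescence responses are tested in the libraries with an shRNA against COPB2. The knockdown tests compare those libraries with the control shRNA libraries, which are also the libraries of the contrast that chose the members.

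Class I alcohol dehydrogenases, the products of the ADH1 genes, oxidise ethanol and other alcohols, retinol (vitamin A) among them, to aldehydes. Retinal dehydrogenases of the ALDH1A family carry the oxidation of retinaldehyde on to retinoic acid, the ligand of nuclear receptors that set gene expression in many tissues. Flavin-containing monooxygenases add an oxygen atom to nitrogen or sulfur in drugs and dietary compounds. The ADH1 and FMO enzymes are best known from liver, with FMO2 as the form typical of lung, and fibroblasts also express some of them.

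Poly(A) RNA was sequenced from IMR90, an established strain of lung fibroblasts, and from IMR90 ER:RAS, the same strain with a fusion of oncogenic RAS to the oestrogen receptor that 4-hydroxytamoxifen (4OHT) switches on. The study asked why senescent cells depend on COPB2, a subunit of the coat of COPI vesicles that move between the Golgi and the endoplasmic reticulum. ER:RAS cells received 100 nM 4OHT, which gives oncogene-induced senescence, or DMSO, and IMR90 cells received bleomycin, a DNA-damaging agent, at 50 µg/ml for 24 h, or DMSO. After 7 days of culture all cells, controls included, received 1 µg/ml doxycycline, which induced a control shRNA, COPB2 shRNA 1 or COPB2 shRNA 2, and RNA was taken 72 h later, at day 10. Each ER:RAS group had 3 libraries and each IMR90 group had 4. The labels do not say whether replicates were separate cultures, and the study counts replicates as independent experiments without tying them to single libraries. P-values measure only the spread between these samples, which may be technical where libraries share a culture. Each senescence trigger was applied to a single line, so trigger and line cannot be told apart.

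The 42 libraries held 13148194 to 23597310 counts. Levels are given as CPM, counts per 1e6 counts of the library after scaling by TMM factors, and 3 counts, taken as the floor, corresponded to 0.110 to 0.271 CPM, which covers counting error only. COPB2, the targeted gene, ranged from 267 to 620 CPM across 14 control shRNA libraries and from 33.9 to 122 CPM across 28 COPB2 shRNA libraries, without overlap. All 9 fibroblast markers examined were above the floor, and their summed level ran from 8158 to 27791 CPM. Of 4 hepatocyte markers, TTR was at the floor in every library and ALB and CYP3A4 in all but bleomycin libraries, and the summed level of the 4 was at most 1.90 CPM. KRT5, SFTPC and SCGB1A1, of 7 epithelial markers, were at the floor in every library, and the summed epithelial level ran from 51.8 to 283 CPM. The 3 blood markers summed to 12.2 to 43.4 CPM with DMSO, 81.7 to 120.3 CPM with 4OHT and 54.2 to 105.0 CPM with bleomycin, with CD3E at the floor in all but the bleomycin libraries, and the 4 endothelial markers summed to 8.64 to 13.7 CPM with 4OHT, above the 1.18 to 4.44 CPM of ER:RAS with DMSO, and to 1.66 to 4.77 CPM in IMR90 with DMSO and 2.04 to 4.09 CPM with bleomycin. What part, if any, these other markers have in the results below was not tested.

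The ADH1 genes lie side by side in a cluster of 7 alcohol dehydrogenase genes on chromosome 4 (GRCh38.p14, chr4:99070978-99435342), ADH1A at chr4:99276369-99290985, ADH1B at chr4:99304971-99321401 and ADH1C at chr4:99336497-99352746. Only 13985 bases separate ADH1A from ADH1B and 15095 bases separate ADH1B from ADH1C. FMO2 (chr1:171185300-171212686), FMO1 (chr1:171248494-171285978) and FMO4 (chr1:171314183-171342084) follow each other on chromosome 1. FMO5 (chr1:147184305-147227284) stands apart on the same chromosome. ALDH1A1 (chr9:72900671-72953053) and ALDH1A3 (chr15:100879831-100916626) are on other chromosomes. Windows of 75 bases, the read length, that were identical to a window of another transcript made up 3.86% of the ADH1B transcript, 4.42% of ADH1A and 8.04% of ADH1C, so a small share of ADH1 reads could not be assigned to 1 gene. The FMO and ALDH1A members shared no such window.

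Promoters are shown for the 3 ADH1 neighbours, of which ADH1B was by far the most abundant, and for ALDH1A3, the member that stayed expressed in both kinds of senescent cells. Each run holds the 250 bases before the RefSeq start of the gene on GRCh38.p14, 5′ to 3′ on the strand of the gene. Capitals mark CACGTG in the ADH1 promoters and GGGCGG, on either strand, in ALDH1A3. These and the other motifs below were picked after the sequences had been read.
ADH1A (chr4:99290986-99291235, minus strand): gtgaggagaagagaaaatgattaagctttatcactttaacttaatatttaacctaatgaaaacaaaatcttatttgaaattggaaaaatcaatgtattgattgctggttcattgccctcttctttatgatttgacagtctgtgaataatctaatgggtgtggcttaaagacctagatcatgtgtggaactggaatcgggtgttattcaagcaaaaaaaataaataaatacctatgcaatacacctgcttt
ADH1B (chr4:99321402-99321651, minus strand): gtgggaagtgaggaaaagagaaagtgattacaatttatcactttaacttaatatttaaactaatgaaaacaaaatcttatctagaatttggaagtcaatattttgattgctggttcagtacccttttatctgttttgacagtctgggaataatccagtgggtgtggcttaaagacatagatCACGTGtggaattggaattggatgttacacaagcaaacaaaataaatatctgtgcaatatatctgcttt
ADH1C (chr4:99352747-99352996, minus strand): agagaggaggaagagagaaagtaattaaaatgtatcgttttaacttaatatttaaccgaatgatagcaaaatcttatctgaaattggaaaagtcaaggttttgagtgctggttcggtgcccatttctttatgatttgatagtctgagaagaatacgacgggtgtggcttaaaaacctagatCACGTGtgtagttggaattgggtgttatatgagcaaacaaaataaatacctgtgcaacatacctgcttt
ALDH1A3 (chr15:100879581-100879830, plus strand): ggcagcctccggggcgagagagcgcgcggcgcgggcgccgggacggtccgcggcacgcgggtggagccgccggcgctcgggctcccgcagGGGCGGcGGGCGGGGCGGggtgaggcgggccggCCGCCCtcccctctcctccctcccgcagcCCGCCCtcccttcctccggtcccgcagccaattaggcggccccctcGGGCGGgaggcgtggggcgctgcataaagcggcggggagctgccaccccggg

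The ADH1 promoters were 81.0% to 82.1% identical to each other, whereas ADH1B and ALDH1A3 were 32.2% identical. CACGTG, an E-box, reads the same on both strands. It occurred once each in ADH1B and ADH1C, 69 bases before the start, did not occur in ADH1A, and was held by 6.34% of 35116 promoters of the same length. GGGCGG, a GC box, had 6 matches in ALDH1A3, of which 2 overlap, occurred in FMO1, FMO4 and FMO5 as well, and was held by 42.6% of promoters. Of the other motifs searched on both strands, CCAAT was in the promoters of ADH1A, ADH1B, ADH1C, ALDH1A1, ALDH1A3, FMO1 and FMO4 (32% of all), TATAAA in FMO1 and FMO5 (10.7%), AGGTCA in FMO1 (12.1%) and TGACTCA in no member (4.20%). GC content was 31.6% in ADH1A, 32.4% in ADH1B, 35.6% in ADH1C and 82.4% in ALDH1A3, beside a median of 58.0% over all promoters. It was 38.4% in ALDH1A1, 34.4% and 48.4% at separate starts of FMO1, 48.4% in FMO4 and 51.6% in FMO5. Matches are descriptions of these windows, and 8 of the 9 members had a promoter sequence.

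Before senescence, ADH1B, FMO2 and ALDH1A3 were the expressed members and the other 6 were low. Divided by transcript length, ADH1B had a median level of 19.2 CPM per kb (range 10.9 to 24.1) in the 12 IMR90 libraries with DMSO. FMO2 followed at 13.9 (7.40 to 20.1) and ALDH1A3 at 7.19 CPM per kb (5.29 to 10.6). The ranges of ADH1B and FMO2 overlapped, as did those of FMO2 and ALDH1A3, while ALDH1A3 stood clear of FMO4 at 1.55 CPM per kb (1.39 to 2.11). FMO4 in turn stood clear of FMO5 at 0.810 (0.462 to 1.11), below which ADH1C at 0.560, FMO1 at 0.449, ALDH1A1 at 0.121 and ADH1A at 0.0504 CPM per kb each overlapped with the next. In the 9 ER:RAS libraries with DMSO, ADH1B at 12.2 (8.02 to 16), ALDH1A3 at 12 (8.67 to 15) and FMO2 at 5.10 CPM per kb (1.97 to 12.6) again led and overlapped with each other. In senescent cells ALDH1A3 was in front, at 10.1 CPM per kb (7.07 to 13) with 4OHT, where no other member exceeded 0.129 in any library, and at 4.85 (4.10 to 6.40) with bleomycin, where the highest single value of FMO2 was 1.41 CPM per kb.

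**Figure D1:**
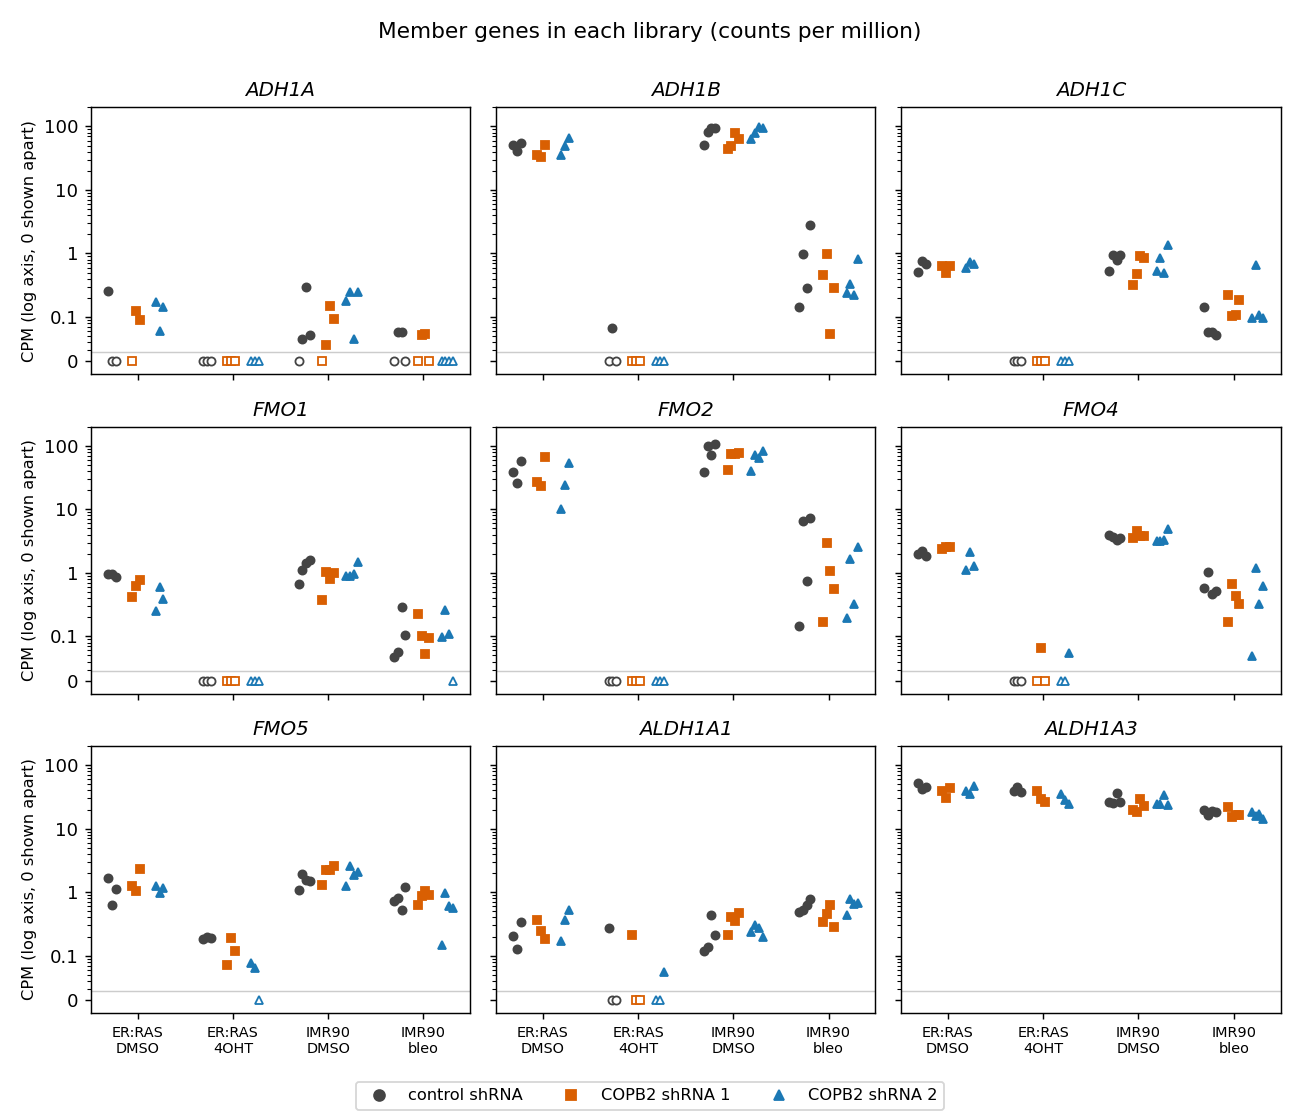
CPM of the 9 members in each of the 42 libraries, by line and treatment on the x axis and by shRNA in colour and shape, on a log axis with 0 shown apart as open symbols. ADH1B and FMO2 lie above 10 CPM in every DMSO library, at 0 to 1 count with 4OHT and below 8 CPM with bleomycin, whereas ALDH1A3 lies between 14.2 and 52.1 CPM throughout.

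ADH1B, the gene of the beta subunit of class I alcohol dehydrogenase, went from a well expressed gene to 0 or near 0 counts in ER:RAS cells given 4OHT. In ER:RAS cells given DMSO it stood at 50.4, 41 and 54.1 CPM with the control shRNA, at 35, 32.6 and 51.0 CPM with COPB2 shRNA 1 and at 35.4, 49.6 and 65.1 CPM with COPB2 shRNA 2. Of the 9 libraries with 4OHT, 8 had no ADH1B count and the control replicate 2 had 1. Against a floor of 3 counts per library, ADH1B was at least 204-fold lower with COPB2 shRNA 1 and at least 256-fold lower with COPB2 shRNA 2, with adjusted p-values of 1.89e-07 and 1.51e-07 (edgeR). As a description, it ranked 3 of 14297 genes from the lowest fold change with the control shRNA.

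After bleomycin at least 1 ADH1B read remained in each of the 12 libraries. In IMR90 cells with DMSO the level was 50.3, 81.7, 96.2 and 92.7 CPM with the control shRNA, 44.5, 49.5, 77.4 and 62.4 CPM with COPB2 shRNA 1 and 64.0, 79.0, 98.1 and 94.2 CPM with COPB2 shRNA 2. After bleomycin it was 0.144, 0.974, 0.287 and 2.80 CPM, then 0.451, 0.973, 0.0531 and 0.282 CPM, then 0.243, 0.328, 0.218 and 0.808 CPM, in the same order of shRNAs. Every bleomycin library lay far below every DMSO library, and the values within the bleomycin groups spread most with the control shRNA and COPB2 shRNA 1. ADH1B was 133-fold lower with COPB2 shRNA 1 (log2 fold change −7.06 ± 0.65 SE, n = 4 per group, edgeR adjusted p = 6.4e-08) and 207-fold lower with COPB2 shRNA 2 (−7.69 ± 0.67, edgeR adjusted p = 2.4e-08), which leaves 0.753% and 0.476% of the DMSO level. Leaving out the library with the highest residual level moved the log2 fold change to −7.83 (COPB2 shRNA 1 without replicate 2) and −8.33 (COPB2 shRNA 2 without replicate 4). The control shRNA gave −6.28 ± 0.61, the rank 2 of 14783 genes from the lowest. In bulk RNA, fewer cells that express a gene and less RNA per cell cannot be told apart.

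ADH1C, which encodes the gamma subunit, fell from a low level. Its counts in ER:RAS libraries with DMSO were 7 to 14, and it had 0 counts in all 9 libraries with 4OHT. This made it at least 3.03-fold lower with COPB2 shRNA 1 (edgeR adjusted p = 9.96e-05) and at least 3.41-fold lower with COPB2 shRNA 2 (edgeR adjusted p = 8.12e-05), bounds set by the depth. In both lines it passed the filter on low counts through its DMSO libraries, so that it could only be called lower. In IMR90 the counts were 6 to 27 with DMSO and 1 to 10 with bleomycin. The log2 fold changes were −2.02 ± 0.55 (edgeR adjusted p = 0.00582) and −1.89 ± 0.51 (edgeR adjusted p = 0.00561). Replicate 2 of bleomycin with COPB2 shRNA 2, at 0.657 CPM, reached into the DMSO range, and without it the second value was −2.95. ADH1A, the gene of the alpha subunit, had 0 to 6 counts in the 21 DMSO libraries, 0 in the 9 libraries with 4OHT and 0 or 1 in those with bleomycin, and was too low to be tested.

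FMO2 followed ADH1B closely, with a wider spread between replicates. In ER:RAS cells with DMSO it stood at 38.2, 25.7 and 57.0 CPM with the control shRNA, at 26.6, 23.4 and 65.5 CPM with COPB2 shRNA 1 and at 10.3, 23.8 and 53.7 CPM with COPB2 shRNA 2. Replicate 3 was the highest in each of these 3 groups, for FMO2 as for ADH1B. All 9 libraries with 4OHT had 0 counts of FMO2. It was at least 198-fold lower with COPB2 shRNA 1 (edgeR adjusted p = 7.51e-05) and at least 150.0-fold lower with COPB2 shRNA 2 (edgeR adjusted p = 9.34e-05), and it ranked 1 of 14297 genes from the lowest with the control shRNA, where the contrast is only described.

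In IMR90 cells with DMSO, FMO2 was at 38.6, 99.2, 72.0 and 105 CPM with the control shRNA, at 40.8, 74.5, 73.5 and 77.8 CPM with COPB2 shRNA 1 and at 39.9, 71.5, 65.0 and 83.9 CPM with COPB2 shRNA 2. Replicate 1 was the lowest of each shRNA group, again as for ADH1B. Bleomycin brought FMO2 to 0.144, 6.53, 0.747 and 7.36 CPM, then to 0.169, 2.92, 1.06 and 0.563 CPM, then to 0.194, 1.64, 0.327 and 2.57 CPM, in the same order of shRNAs. All 12 values lay below the lowest DMSO value. The log2 fold changes were −5.84 ± 0.88 (57.3-fold lower, n = 4 per group, edgeR adjusted p = 2.49e-05) with COPB2 shRNA 1 and −5.82 ± 0.89 (56.3-fold lower, edgeR adjusted p = 2.57e-05) with COPB2 shRNA 2. They became −6.85 without replicate 2 of bleomycin with COPB2 shRNA 1 and −6.60 without replicate 4 of bleomycin with COPB2 shRNA 2. With the control shRNA the value was −4.45 ± 0.81, rank 8 of 14783.

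FMO1, FMO4 and FMO5, whose products are FMO forms of other tissues such as kidney and liver, fell too, from lower levels. FMO4 had 13 to 56 counts in ER:RAS libraries with DMSO, and with 4OHT 7 of 9 libraries had 0 and the other 2 had 1 (edgeR adjusted p = 4.45e-06 and 1.63e-05 with COPB2 shRNA 1 and 2). FMO1 had 3 to 19 counts with DMSO and 0 in all 9 libraries with 4OHT, at least 3.12-fold and at least 2.13-fold lower (edgeR adjusted p = 0.000276 and 0.000666). FMO5 had 10 to 51 counts with DMSO and 0 to 3 with 4OHT (edgeR adjusted p = 9.52e-05 and 6.06e-05). None of these genes had overlapping ranges between DMSO and 4OHT. With so few counts with 4OHT, they passed the filter on low counts through their DMSO libraries, so that they could only be called lower.

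The bleomycin response of these 3 FMO genes differed in size. FMO4 ran from 3.20 to 4.87 CPM in the 12 DMSO libraries and from 0.0485 to 1.18 CPM with bleomycin, a log2 fold change of −3.32 ± 0.44 (edgeR adjusted p = 4.85e-06) and −2.83 ± 0.43 (edgeR adjusted p = 2.21e-05) with COPB2 shRNA 1 and 2. FMO1 ran from 0.374 to 1.58 CPM and from 0 to 0.287 CPM, or −2.76 ± 0.54 (edgeR adjusted p = 0.000391) and −3.26 ± 0.55 (edgeR adjusted p = 7.3e-05). In IMR90 too, FMO1 passed the filter on low counts through its DMSO libraries, so that it could only be called lower. For FMO5 the ranges were 1.08 to 2.60 CPM and 0.146 to 1.19 CPM, overlapping through the control shRNA, and the log2 fold changes −1.32 ± 0.34 (edgeR adjusted p = 0.00468) and −1.84 ± 0.37 (edgeR adjusted p = 0.000426). FMO5 kept the largest share of its level among the 4 FMO members in bleomycin-treated cells, by the point estimates. Without replicate 2 of bleomycin with COPB2 shRNA 2 the second value was −3.45 for FMO4 and −3.88 for FMO1.

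ALDH1A3, which makes retinoic acid from retinaldehyde, stayed expressed in both kinds of senescent cells. Its level in ER:RAS cells with DMSO was 52.1, 41.6 and 45.3 CPM with the control shRNA, 38.4, 30.1 and 42.9 CPM with COPB2 shRNA 1 and 39.1, 35.7 and 47.6 CPM with COPB2 shRNA 2. With 4OHT it was 39.3, 45.1 and 38.3 CPM, then 39.6, 29.1 and 25.9 CPM, then 35.2, 27.8 and 24.5 CPM, in the same order of shRNAs. The groups overlapped for the control shRNA and COPB2 shRNA 1, and with COPB2 shRNA 2 all 3 libraries with 4OHT lay just below those with DMSO. The log2 fold changes were −0.32 ± 0.23 (95% interval −0.81 to 0.16, edgeR adjusted p = 0.291) and −0.57 ± 0.23 (−1.05 to −0.09, edgeR adjusted p = 0.0603). With the replicate number as a block, the paired fit, the latter became −0.57 with an edgeR adjusted p of 0.0220.

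In IMR90 cells ALDH1A3 stood at 26, 25.5, 36.9 and 26.1 CPM with DMSO and the control shRNA, at 19.9, 18.3, 29.7 and 22.3 CPM with COPB2 shRNA 1 and at 24.4, 24.3, 33.8 and 23.5 CPM with COPB2 shRNA 2. Bleomycin gave 19.4, 16.3, 19.3 and 18.4 CPM, then 22.2, 15.4, 16.5 and 16.5 CPM, then 17.9, 15.8, 17.1 and 14.2 CPM. The groups overlapped only with COPB2 shRNA 1. The log2 fold change was −0.74 ± 0.17 with COPB2 shRNA 2 (edgeR adjusted p = 0.00147) and −0.39 ± 0.17 with COPB2 shRNA 1 (95% interval −0.74 to −0.04, edgeR adjusted p = 0.0788), the latter past the threshold without replicate 1 of the bleomycin libraries (−0.53, edgeR adjusted p = 0.0309).

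ALDH1A1, the other retinal dehydrogenase among the members, was low, and its estimates with bleomycin were above 0. With COPB2 shRNA 2 it had 0.238, 0.300, 0.270 and 0.199 CPM with DMSO and 0.437, 0.788, 0.654 and 0.665 CPM with bleomycin, without overlap. It rose there by a log2 fold change of 1.26 ± 0.36 (edgeR adjusted p = 0.00732), from 4 to 6 counts with DMSO to 9 to 14 with bleomycin. In IMR90 it passed the filter on low counts through the bleomycin libraries, so that it could only be called higher. With COPB2 shRNA 1 the levels were 0.214, 0.402, 0.352 and 0.469 CPM and 0.338, 0.461, 0.637 and 0.282 CPM, which overlapped (0.19 ± 0.35, 95% interval −0.53 to 0.91, edgeR adjusted p = 0.734), and the control shRNA gave 1.33. ER:RAS libraries had 2 to 11 ALDH1A1 counts with DMSO and 0 to 3 with 4OHT, too few to be tested in the fit of that line.

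**Figure D2:**
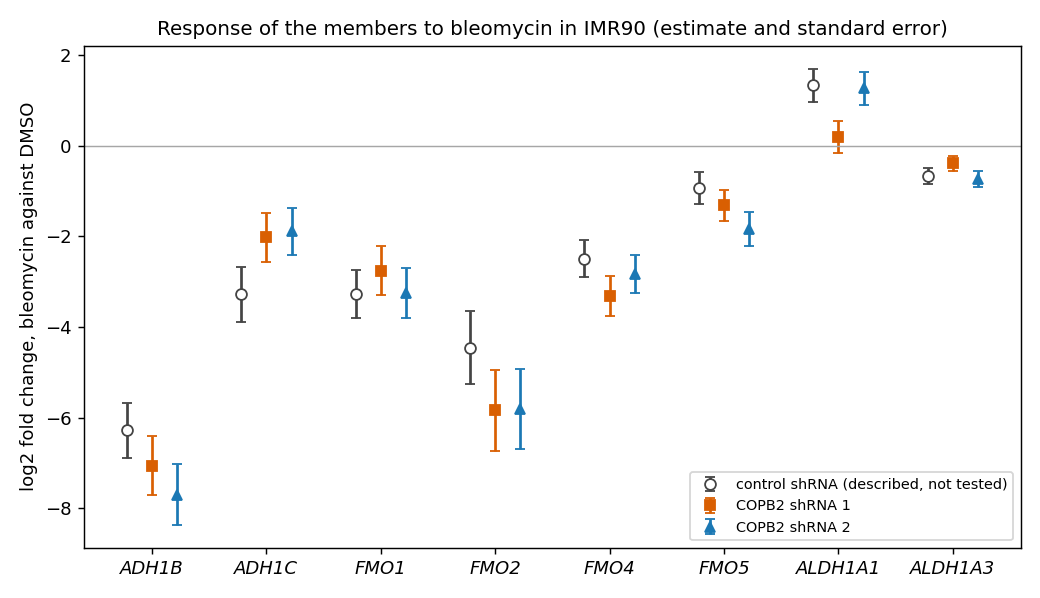
Log2 fold change of the 8 members tested in IMR90 cells, bleomycin against DMSO, and its standard error in edgeR (4 libraries per group). Open circles are the control shRNA, whose contrast chose the members and was not tested, and filled symbols are COPB2 shRNA 1 and 2. ADH1B and FMO2 lie lowest, between −4.45 and −7.69, and ALDH1A1 is the only gene above 0.

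Counted together, 6 of the 7 members tested in ER:RAS cells were lower with 4OHT for each COPB2 shRNA and 0 were higher. Of all 14297 genes, 21.5% and 22% were called lower and 15.4% and 14.9% higher. In IMR90 cells 6 of 8 members were lower with bleomycin and COPB2 shRNA 1, and 7 of 8 were lower and 1 higher with COPB2 shRNA 2. Over all 14783 genes, 17.8% and 18.3% were called lower and 17.4% and 21.7% higher. The median log2 fold change of the tested members was −2.39 and −2.36 with bleomycin, beside 0.01 over all genes. Since the members were chosen for their level in the same experiment, these shares describe the list and give no independent support for it. ADH1C and FMO1 in both lines, and in ER:RAS other members at 0 or near 0 counts with 4OHT, passed the filter on low counts through their DMSO libraries. These could only be called lower. ALDH1A1 passed it in IMR90 through the bleomycin libraries, so that it could only be called higher.

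The sizes of both responses were compared in a fit of all 42 libraries. By the fitted values, the 4OHT response was lower than the bleomycin response for ADH1B (edgeR adjusted p = 0.0347), ADH1C (0.0232), FMO4 (0.0267) and FMO5 (0.0137) with COPB2 shRNA 1, which is 4 of 8 members beside 18.2% of all 15299 genes. With COPB2 shRNA 2 the genes were ADH1C (edgeR adjusted p = 0.0120), FMO4 (0.0384), FMO5 (0.0160) and ALDH1A1 (0.000745), again 4 of 8, beside 18.4%. ADH1B missed the threshold there (0.0507), and FMO2 missed it with both shRNAs (0.0746 and 0.103). For ALDH1A3 the log2 responses differed by 0.12 (edgeR adjusted p = 0.846) and 0.22 (0.655). Where the 4OHT group had no count, as for ADH1B and ADH1C, the fitted size rests on the prior count, so no fold is given. FMO4 had 0 or 1 count with 4OHT and FMO5 had 0 to 3, so their differences rest on values at the floor too. For ADH1C the bounds, at least 3.03-fold and at least 3.41-fold lower with 4OHT beside log2 fold changes of −2.02 and −1.89 with bleomycin, do not show a larger fall, and its calls rest on fitted values at 0 counts. ALDH1A1 entered this joint fit although its 0 to 11 counts in ER:RAS libraries were too few for the fit of that line, so its value is given without weight. By the Wald test of DESeq2, ADH1C with COPB2 shRNA 1 (DESeq2 adjusted p = 0.0663) and FMO4 (0.0693) and FMO5 (0.0740) with COPB2 shRNA 2 missed the threshold, while FMO2 with both (0.00555 and 0.0105) and ADH1B with COPB2 shRNA 2 (0.0197) passed it.

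These differences between the responses depended on single libraries. For COPB2 shRNA 1, ADH1B and ADH1C passed only with all 3 libraries with 4OHT in the fit. ADH1B was also lost without replicate 3 of DMSO in ER:RAS (edgeR adjusted p = 0.0601) or replicate 2 of bleomycin (0.0954), FMO4 without replicate 1 (0.0912) or 3 (0.106) of 4OHT or replicate 2 of bleomycin (0.0685), and FMO5 without replicate 1 of 4OHT (0.0547) or replicate 3 of DMSO in ER:RAS (0.0610). For COPB2 shRNA 2, ADH1C was lost without replicate 2 of bleomycin (0.0811), FMO5 without replicate 3 of 4OHT (0.101), and FMO4 in 8 fits, without replicate 1 or 2 of 4OHT, replicate 2 of DMSO in ER:RAS, replicate 2 or 4 of bleomycin or replicate 1, 2 or 3 of DMSO in IMR90, with edgeR adjusted p-values of 0.0510 to 0.127. ADH1B passed there without replicate 1 (0.0462) or 3 (0.0442) of bleomycin, and ALDH1A1 passed with COPB2 shRNA 1 without replicate 1 of 4OHT (0.00812).

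The FMO2 reads that remained after bleomycin were unevenly spread over replicates. Replicates 2 and 4 held the highest FMO2 values with the control shRNA and with COPB2 shRNA 2, and replicates 2 and 3 with COPB2 shRNA 1. ADH1B was highest in replicates 4 and 2 with the control shRNA and with COPB2 shRNA 2, and in replicates 2 and 1 with COPB2 shRNA 1. MKI67, a marker of cycling cells, had 0.191, 0.745, 0.460 and 1.87 CPM with the control shRNA, 0.451, 0.922, 0.425 and 1.50 CPM with COPB2 shRNA 1 and 0.243, 0.0657, 0.491 and 0.903 CPM with COPB2 shRNA 2. Its highest library was replicate 4 in all 3 groups, and its part in the remaining reads was not tested. This pattern was noticed after the values were seen.

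**Figure D3:**
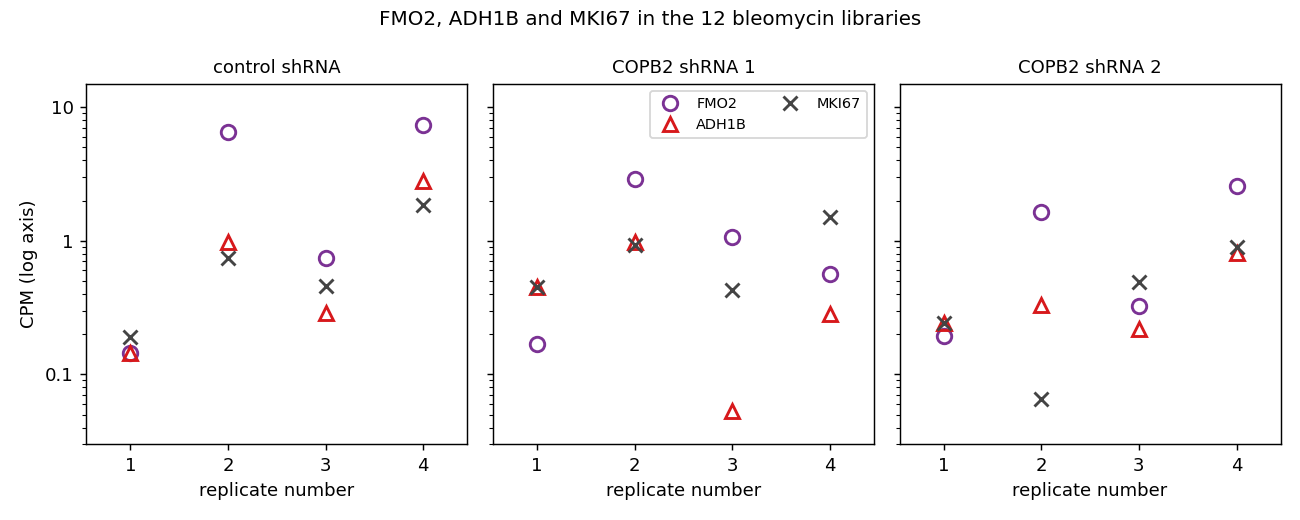
CPM of FMO2, ADH1B and MKI67 in the 12 bleomycin-treated IMR90 libraries, by replicate number and shRNA, on a log axis. FMO2 spans 0.144 to 7.36 CPM and ADH1B 0.0531 to 2.80 CPM, and with the control shRNA replicates 2 and 4 hold the higher values of both.

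Knockdown of COPB2 moved no member past the threshold in any cell state. Each COPB2 shRNA was compared with the control shRNA in 4 states, and 0 of 60 member tests were called by edgeR, 3 had an unadjusted p under 0.05, and the Wald test of DESeq2 called 0. The control shRNA libraries are also those of the contrast that chose the members, so these tests are not independent of that choice. With 4OHT, however, ADH1B, ADH1C, FMO1, FMO2 and FMO4 had 0 or 1 count in every library and FMO5 had 0 to 3. A fall through knockdown could not be seen for these genes in that state. Few genes were called at all, in ER:RAS cells 0.00699% of 14297 genes with either COPB2 shRNA in DMSO and 0.140% and 0.224% in 4OHT, and in IMR90 cells 0.00676% of 14783 genes with either in DMSO and 0.00676% and 0.0744% in bleomycin. For ADH1B the log2 fold changes in ER:RAS cells with DMSO were −0.32 (95% interval −1.11 to 0.47) and 0.01 (−0.78 to 0.80) with COPB2 shRNA 1 and 2, and in IMR90 cells with DMSO −0.45 (−1.41 to 0.51) and 0.07 (−0.88 to 1.03). FMO2 gave −0.09 (−1.57 to 1.39) and −0.49 (−1.98 to 1.00) in ER:RAS cells, and −0.24 (−1.66 to 1.19) and −0.27 (−1.70 to 1.16) in IMR90 cells. All these intervals include 0.

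In bleomycin-treated cells the estimates for both genes were negative, −1.23 (−2.62 to 0.15) and −1.34 (−2.74 to 0.06) for ADH1B and −1.62 (−3.31 to 0.07) and −1.63 (−3.32 to 0.07) for FMO2. Without replicate 4 of bleomycin with the control shRNA, the library with the highest level of both genes, they became −0.0719 and −0.17 for ADH1B and −1.08 and −1.07 for FMO2. The lowest values with a library left out were −2.02 and −1.98 for ADH1B and −2.65 and −2.43 for FMO2, without replicate 2 of bleomycin with COPB2 shRNA 1 and replicate 4 of bleomycin with COPB2 shRNA 2. Levels in that state were close to the floor in several libraries. The intervals above are from the fit without pairing, although same-numbered libraries deviated together in the IMR90 knockdowns. With the replicate number as a block, neither ADH1B nor FMO2 was called in bleomycin-treated cells. The 3 tests with an unadjusted p under 0.05 were FMO1 with COPB2 shRNA 2 in ER:RAS cells with DMSO (−1.16), and FMO5 and ALDH1A3 (−0.50, 95% interval −0.99 to −0.02) with COPB2 shRNA 2 in those with 4OHT. ALDH1A3 was otherwise within −0.39 and −0.05.

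**Figure D4:**
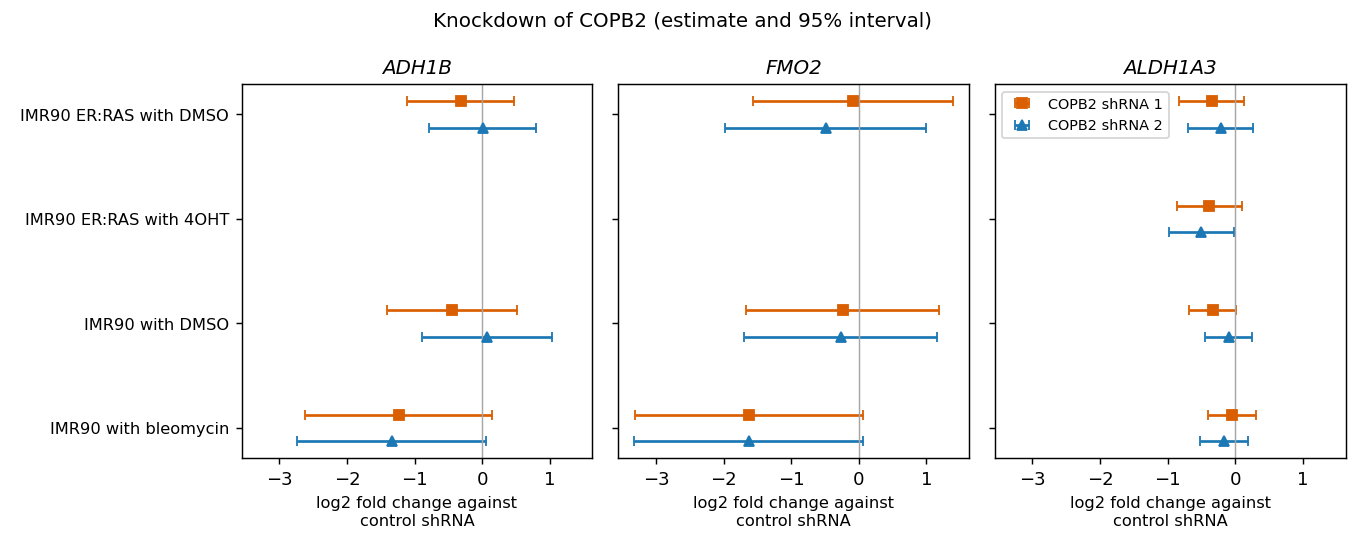
Log2 fold change of ADH1B, FMO2 and ALDH1A3 for each COPB2 shRNA against the control shRNA, with 95% intervals, in the 4 cell states. ADH1B and FMO2 are not drawn for 4OHT, where they had 0 or 1 count. All intervals but that of ALDH1A3 with COPB2 shRNA 2 and 4OHT (−0.99 to −0.02) include 0.

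The lines themselves were compared before senescence, with DMSO and each COPB2 shRNA. No member was called by edgeR, beside 0.150% and 0.275% of 15299 genes, 1 and 4 of 8 members had an unadjusted p under 0.05 with COPB2 shRNA 1 and 2, and DESeq2 called 0 and 1. ALDH1A3 was higher in ER:RAS than in IMR90 by an estimated log2 value of 0.72 (edgeR adjusted p = 0.144) and 0.62 (0.166). FMO4 had −0.66 (edgeR adjusted p = 0.597) and −1.26 (0.210), and FMO2 −0.79 and −1.15. The call of DESeq2 was FMO4 with COPB2 shRNA 2 (DESeq2 adjusted p = 0.0228).

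Of further genes of the same families, ADH5 fell in both models and ALDH1A2, at few counts, was called higher with bleomycin. ADH5, the broadly expressed glutathione-dependent formaldehyde dehydrogenase, changed by −0.74 ± 0.18 (edgeR adjusted p = 0.00435) and −0.85 ± 0.18 (0.00171) with 4OHT and by −0.64 ± 0.14 (0.00093) and −0.54 ± 0.14 (0.00369) with bleomycin. ALDH1A2, the third retinal dehydrogenase gene, had 0 to 5 counts in IMR90 libraries with DMSO and 4 to 16 with bleomycin. Its estimates with bleomycin were 2.97 ± 0.64 (edgeR adjusted p = 0.000939) and 2.42 ± 0.70 (0.0081). It passed the filter on low counts through the bleomycin libraries, so that it could only be called higher, and was too low for a test in ER:RAS. ADH4, ADH6 and ADH7 were too low to be tested in either line.

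Other genes of retinoid handling moved in both directions. Of 28 listed genes, 20 were tested with 4OHT, and 2 were higher and 8 lower with each COPB2 shRNA, beside the 21.5% and 22% lower and 15.4% and 14.9% higher of all genes. CYP26B1, an enzyme that degrades retinoic acid, rose from 0.101 and 0.178 CPM to 20.3 and 19.6 CPM (edgeR adjusted p = 1.61e-08 and 3.19e-08). RARRES2, which encodes the secreted protein chemerin, fell by −5.72 ± 0.58 (edgeR adjusted p = 1.91e-06) and −5.52 ± 0.57 (2.35e-06), and PLAAT4, a retinoid-inducible phospholipase, from 14.9 and 16.4 CPM to 0.0215 and 0.0508 CPM (1.73e-06 and 2.01e-06). With bleomycin, 3 of 21 were higher and 7 lower with COPB2 shRNA 1, and 4 higher and 7 lower with COPB2 shRNA 2, beside 17.4% and 21.7% higher and 17.8% and 18.3% lower of all genes. RARRES2 (−4.41 and −3.48, edgeR adjusted p = 3.76e-07 and 3.65e-06) and PLAAT4 (−3.66 and −2.73, 9.37e-06 and 0.000125) fell.

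Of other aldehyde dehydrogenases, 3 and 4 of 12 tested were lower and 0 higher with 4OHT, beside 21.5% and 22% lower and 15.4% and 14.9% higher of all genes. Among the lower genes were ALDH3B1 (−2.23 and −2.36, edgeR adjusted p = 0.00052 and 0.000333), ALDH6A1 (−0.88 and −0.76, 0.00569 and 0.0139) and ALDH7A1 (−0.62 and −0.48, 0.00672 and 0.0288). With bleomycin, 2 of 14 were higher and 1 lower for COPB2 shRNA 1, and 3 higher and 2 lower for COPB2 shRNA 2, beside 17.4% and 21.7% higher and 17.8% and 18.3% lower of all genes. Mitochondrial ALDH1B1 rose by 0.72 and 0.67 (edgeR adjusted p = 0.00397 and 0.00661).

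A list of 30 other oxidative and conjugating enzymes gave 4 higher and 11 lower of 29 with 4OHT for each COPB2 shRNA, beside 15.4% and 14.9% higher and 21.5% and 22% lower of all genes. The aldo-keto reductase AKR1C3 (−3.78 and −4.50, edgeR adjusted p = 2.89e-06 and 8.59e-07), the cytochrome P450 CYP2U1 (−3.64 and −3.21, 6.19e-06 and 1.87e-05) and the glutathione transferase GSTM2 (−2.16 and −2.16, 0.000311 for both) fell. With bleomycin, 5 of 28 were higher and 6 lower, and 6 higher and 3 lower, with COPB2 shRNA 1 and 2, where 17.4% and 21.7% of all genes were higher and 17.8% and 18.3% lower. Aldose reductase AKR1B1 (2.07 and 2.40, edgeR adjusted p = 3.01e-05 and 5.99e-06), aldehyde oxidase AOX1 (2.28 and 1.94, 8.83e-08 and 5.71e-07) and the quinone reductase NQO1 (1.36 and 1.59, 7.26e-05 and 1.22e-05) rose.

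The genes whose profile over the 12 groups was most like that of ADH1B and FMO2 were ranked by the root mean square difference of centred log2 group means among 15298 genes. WNT2, a secreted signalling protein, was nearest to both, at 0.461 from ADH1B and 0.297 from FMO2, beside a root mean square of 3.92 and 3.64 for the profiles of ADH1B and FMO2 themselves. ADH1B and FMO2 were 0.639 apart. PTGIS, the prostacyclin synthase, stood at 1.02 from ADH1B and 0.578 from FMO2, COL15A1, a collagen gene, at 1.06 and 0.755, and CEMIP, a hyaluronan-degrading protein, at 1.13 and 0.692. WNT2 had a mean log2 CPM of 5.64 with DMSO, −2.77 with 4OHT and −0.15 with bleomycin, close to 5.52, −2.89 and 0.16 for FMO2, while CEMIP followed the profile at a higher level, 8.92, 1.73 and 4.75. With 4OHT, WNT2 and FMO2 had the same group mean with the control shRNA (−2.81) and with COPB2 shRNA 1 (−2.94). These are values set by the prior count at 0 counts, so the likeness in those groups rests on the floor. The ranking is a description over 12 group means and carries no test.

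**Figure D5:**
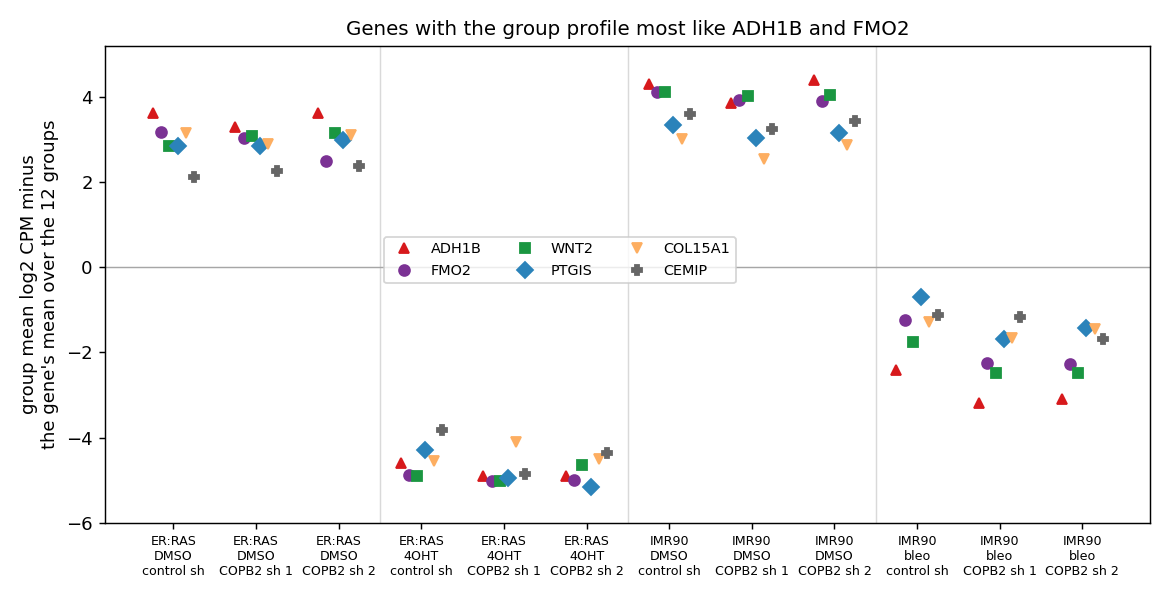
Group mean log2 CPM of ADH1B, FMO2, WNT2, PTGIS, COL15A1 and CEMIP in the 12 groups, each minus the mean of the gene over the groups. All 6 genes lie above 2 in the DMSO groups, below −3 with 4OHT and between −0.5 and −3.5 with bleomycin.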

How the data were processed

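Libraries were placed in 12 groups by line, treatment and shRNA from their labels. The authors deposited raw read counts per gene symbol, with no normalization, for 42 libraries of 13148194 to 23597310 counts, and 0 columns of the table were left unused. The sources disagree on how they were made: the study's methods name Tophat, hg19 and an Ensembl annotation, and the submitters' processing notes name DRAGEN, STAR 2.7.8a, DESeq2 1.32.0 and hg38. Of the 28266 symbols, 26986 matched RefSeq symbols on GRCh38.p14 and 25055 matched GENCODE names on GRCh37, so RefSeq coordinates and promoter sequences on GRCh38.p14 were used. Libraries were directional, and the counting mode is not given in the sources used here.

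Low counts were removed with filterByExpr, and group differences were tested with the two-sided quasi-likelihood F-test of edgeR 4.0.16 (TMM, robust) in R 4.3.3, in fits of 18 ER:RAS libraries (14297 genes), 24 IMR90 libraries (14783 genes) and all 42 (15299 genes). Adjusted p-values are Benjamini-Hochberg values over all genes tested, with calls under 0.05. The fits were tested on simulated data with known changes. Errors are standard errors of the fit, and CPM values used TMM-scaled library sizes, with a prior count of 2 for log2 values. Alternatives were DESeq2 size factors, no filter, the Wald test of DESeq2 1.42.0, only the groups compared, the replicate number as a block, and each library left out. Counts of members called were also taken with a cut on size, a log2 change of 1 or more either way. Same-numbered libraries deviated together (every correlation over 0.1) for 4OHT against DMSO with each COPB2 shRNA, from 0.414 to 0.769, and for the IMR90 knockdowns, from 0.106 to 0.787, which is a hint from the data, since the labels name no shared batch. No pair of replicates agreed within counting noise.

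The members, the other gene lists and the tests were chosen with earlier results of these data known. Named were the members, further family genes, COPB2 and markers, up to 3 genes of each other list that were called in the same direction with both COPB2 shRNAs with the largest changes, provided that the higher group averaged 100 or more counts, and the 5 genes nearest in profile to ADH1B and to FMO2. Some genes that this rule takes in are not reported here.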

Additional observations from a re-analysis of the deposited data

Results flagged for a closer look

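In groups of 4 libraries, 7 of 49 sets of values tested had a highest or lowest library far from the others, where chance gives about 1 in 20. ADH1C stood at 0.657 CPM in replicate 2 of bleomycin with COPB2 shRNA 2. In IMR90 cells with DMSO and COPB2 shRNA 2, replicate 4 was high for FMO1 (1.49 CPM) and FMO4 (4.87 CPM), and replicate 3 for ALDH1A3 (33.8 CPM). Replicate 3 with DMSO and the control shRNA was high for ALDH1A3 as well (36.9 CPM), and replicate 1 of bleomycin with COPB2 shRNA 1 had 22.2 CPM. FMO2 was low in replicate 1 with DMSO and COPB2 shRNA 1 (40.8 CPM).

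The responses to 4OHT and bleomycin differed for ADH1B (edgeR adjusted p = 0.0347), ADH1C (0.0232), FMO4 (0.0267) and FMO5 (0.0137) with COPB2 shRNA 1, and for ADH1C (edgeR adjusted p = 0.0120), FMO4 (0.0384), FMO5 (0.0160) and ALDH1A1 (0.000745) with COPB2 shRNA 2. In each case the fitted 4OHT response was the lower. With 4OHT and these shRNAs, ADH1B and ADH1C had 0 counts, FMO4 had 0 or 1 and FMO5 had 0 to 3. The fitted sizes of these genes therefore rest on values at the floor, and that of ALDH1A1 on 0 to 11 counts in ER:RAS libraries. Line and trigger cannot be told apart.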

How the results depend on the processing

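Calls of members in the responses to 4OHT and bleomycin with a COPB2 shRNA held in each alternative fit that tested them, except for ALDH1A3. It passed the threshold in 3 fits. With 4OHT and COPB2 shRNA 2 this was under the replicate block (−0.57, edgeR adjusted p = 0.0220). With bleomycin and COPB2 shRNA 1 it was under the replicate block (−0.38, 0.0334) and without replicate 1 of bleomycin (−0.53, 0.0309). Not every alternative tested each member, with 10 for ADH1C and 11 for ADH1B in the 4OHT response with COPB2 shRNA 1. The cut on size leaves out ALDH1A3 with bleomycin and COPB2 shRNA 2, which stayed between −0.805 and −0.595 in its alternative fits. Of the tested log2 fold changes recomputed, 958 kept their direction and side of the threshold, 32 lost the threshold, 16 gained it and 12 changed sign. Of the counts of members called, 212 stayed equal or close to the main count by a fixed ratio, and 10 moved further. That label of the counts does not follow which members were called or in which direction.

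The number of members that differed between ER:RAS and IMR90 with DMSO and COPB2 shRNA 2 was 0, and became 2 under the replicate block (FMO4, edgeR adjusted p = 0.0335, and ALDH1A3, 0.0355) and 1 by DESeq2 (FMO4). The number that differed between the 4OHT and bleomycin responses was 4 with each COPB2 shRNA. For COPB2 shRNA 1 it was 2 with no filter on low counts and 1 to 4 when a library was left out, and for COPB2 shRNA 2 it was 2 with only the groups compared and 2 to 5 when a library was left out. Under the replicate block FMO2 (COPB2 shRNA 1, edgeR adjusted p = 0.0493) and ADH1B (COPB2 shRNA 2, 0.0462) also passed. In these contrasts same-numbered libraries deviated together in the ER:RAS part. In the IMR90 part they did not, with correlations from −0.308 to 0.498 for COPB2 shRNA 1 and from −0.368 to 0.369 for COPB2 shRNA 2. The block changed no other call. In that comparison DESeq2 gained FMO2 with both COPB2 shRNAs (DESeq2 adjusted p = 0.00555 and 0.0105) and ADH1B with COPB2 shRNA 2 (0.0197), and lost ADH1C with COPB2 shRNA 1 (0.0663) and FMO4 (0.0693) and FMO5 (0.0740) with COPB2 shRNA 2.

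The changes of sign were in log2 fold changes past no threshold. ADH1B with COPB2 shRNA 2 against the control in ER:RAS with DMSO was −0.0275 under the replicate block and −0.25 to 0.21 with a library left out. When a library was left out, the ranges were −0.10 to 0.19 for the same contrast in IMR90 with DMSO, −0.22 to 0.0607 for ALDH1A3 there, −0.75 to 0.27 for FMO2 with COPB2 shRNA 1 in ER:RAS with DMSO, −0.0318 to 0.35 for ALDH1A1 in the bleomycin response with COPB2 shRNA 1, and −0.0742 to 0.25 for the difference of the ALDH1A3 responses with COPB2 shRNA 1. The cause of these changes was not tested. Depth limits the 4OHT values of members with 0 to 3 counts, whose folds are bounds or are not given.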

Other observations

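ADH7, an alcohol dehydrogenase known from stomach and with high activity on retinol, had 0 counts in all 21 DMSO libraries and 2 to 11 counts in the bleomycin-treated libraries. It did not pass the filter on low counts and was not tested.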
